A study of Mus musculus with 13 samples.

Results

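The genes described here write or remove DNA methylation, or belong to the corepressor machinery that the PML-RARA fusion protein recruits. They are the DNA methyltransferases Dnmt1, Dnmt3a and Dnmt3b, the methylcytosine dioxygenases Tet1, Tet2 and Tet3, the nuclear receptor corepressor Ncor1, and the histone deacetylases Hdac1 and Hdac3. The 9 genes were chosen by name, and a gene's values came from the probe sets that the array's annotation assigned to that gene alone. For 7 of the 9 genes the array gave 208 such probe sets, out of 208397 probe sets with 1 gene. No probe set was listed under Tet1 or Tet3, so these 2 genes were not analysed here. The 7 measured genes all passed the filter on low values, which left 10575 of 15107 genes for testing.

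Dnmt1 copies methylation onto the new DNA strand after replication, whereas Dnmt3a and Dnmt3b place methyl groups on unmethylated DNA and the Tet enzymes oxidise them towards removal. Ncor1 is a scaffold that holds Hdac3 on repressed genes, and Hdac1 works in the Sin3, NuRD and CoREST complexes. PML-RARA, the fusion protein of acute promyelocytic leukaemia, binds retinoid response elements and holds NCoR-type corepressors, histone deacetylases and DNA methyltransferases there. In mouse blood stem cells, Dnmt3a and Tet2 restrain self-renewal and Dnmt1 is needed for stem cell function and lineage choice.

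Expression was measured on 13 exon arrays, with RNA of cells sorted from the marrow of individual Bl/6 Taconic mice. The mCG-PR N17 mice express PML-RARA from the murine cathepsin G locus, so expression is tied to cells in which that locus is active, and the controls were wild-type littermates. The SLAM cells, named for the receptors used to sort long-term stem cells, came from mCG-PR mice of 7 weeks (n = 2) and wild-type mice of 6 weeks (n = 2). The KLS cells (Kit+, lineage-negative, Sca-1+ stem and progenitor cells) came from mCG-PR mice of 13 weeks (n = 2), mCG-PR mice of 6 weeks (n = 3) and wild-type mice of 12 or 13 weeks (n = 4). Genotype and age therefore cannot be told apart in the 6-week KLS and SLAM comparisons, nor can population and age where wild-type SLAM cells are set against wild-type KLS cells. In mCG-PR mice, SLAM cells of 7 weeks are set against KLS cells of 6 weeks, so age differs there too. Each array was made from amplified cDNA of 20 ng of RNA.

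The sort markers followed the labels in most respects. Kit lay at 9.57 to 10.51 and Ly6a (Sca-1) at 8.51 to 9.89 log2 intensity on every array, and Cd48, which the SLAM gate excludes, lay at 4.24 to 5.56 on the SLAM arrays against 8.28 to 9.61 on the KLS arrays. Slamf1, the receptor that defines SLAM cells, was at 6.21 and 6.63 in mCG-PR SLAM cells, overlapping with the 5.17 to 6.32 of KLS cells, while wild-type SLAM cells had 7.68 and 7.47. Procr, the other marker listed as present in SLAM cells, went the other way. It was at 9.695 and 8.332 in mCG-PR SLAM cells, above the 6.289 to 7.554 of KLS cells. Wild-type SLAM cells had 8.797 in replicate 1 and 7 in replicate 2, the latter within the KLS range. The SLAM arrays were noisier, with a median within-group SD of 0.325 against 0.217 for the KLS arrays. The mean of the Y-linked genes Eif2s3y and Kdm5d was 4.28 and 4.23 in mCG-PR SLAM cells. It was 4.53 in replicate 3 of the 6-week mCG-PR KLS cells, against 7.67 to 8.48 on the other 10 arrays. The SLAM genotype comparison therefore also differs in this respect. So does mCG-PR SLAM against 6-week mCG-PR KLS cells, where KLS replicates 1 and 2 were at 8.465 and 8.384. The neutrophil marker list averaged 7.31 to 7.90 in mCG-PR SLAM cells, 8.18 to 10.02 in wild-type SLAM cells, 8.28 to 8.56 in 13-week and 8.22 to 9.25 in 6-week mCG-PR KLS cells, and 8.61 to 8.76 in wild-type KLS cells. The lists of T cell, B cell, macrophage, erythroid and megakaryocyte markers averaged 5.87 to 7.55 on all arrays. Wild-type SLAM replicate 2 stood apart, with a B cell average of 7.28 against 5.91 in replicate 1 and 6.07 to 6.61 in the other groups. That array also had the highest neutrophil, T cell, macrophage and erythroid averages, but not the highest megakaryocyte average. The part of these lists in the results was not tested.

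Dnmt1, the maintenance methyltransferase, was lower in SLAM than in KLS cells, and in mCG-PR mice this difference passed the test. Its level was 8.54 and 8.61 log2 intensity in mCG-PR SLAM cells, 8.45 and 8.75 in wild-type SLAM cells, 9.64 and 9.41 in 13-week mCG-PR KLS cells, 9.73, 9.95 and 10.18 in 6-week mCG-PR KLS cells, and 9.55, 9.20, 9.46 and 9.30 in wild-type KLS cells. All 4 SLAM arrays lay below all 9 KLS arrays, and the share of all genes with this order was not counted. By group mean the order was 9.96 in 6-week mCG-PR KLS cells, 9.53 in 13-week mCG-PR KLS cells, 9.38 in wild-type KLS cells, 8.60 in wild-type SLAM cells and 8.57 in mCG-PR SLAM cells, and no neighbouring pair in that order differed by limma's adjusted p.

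**Figure D1:**
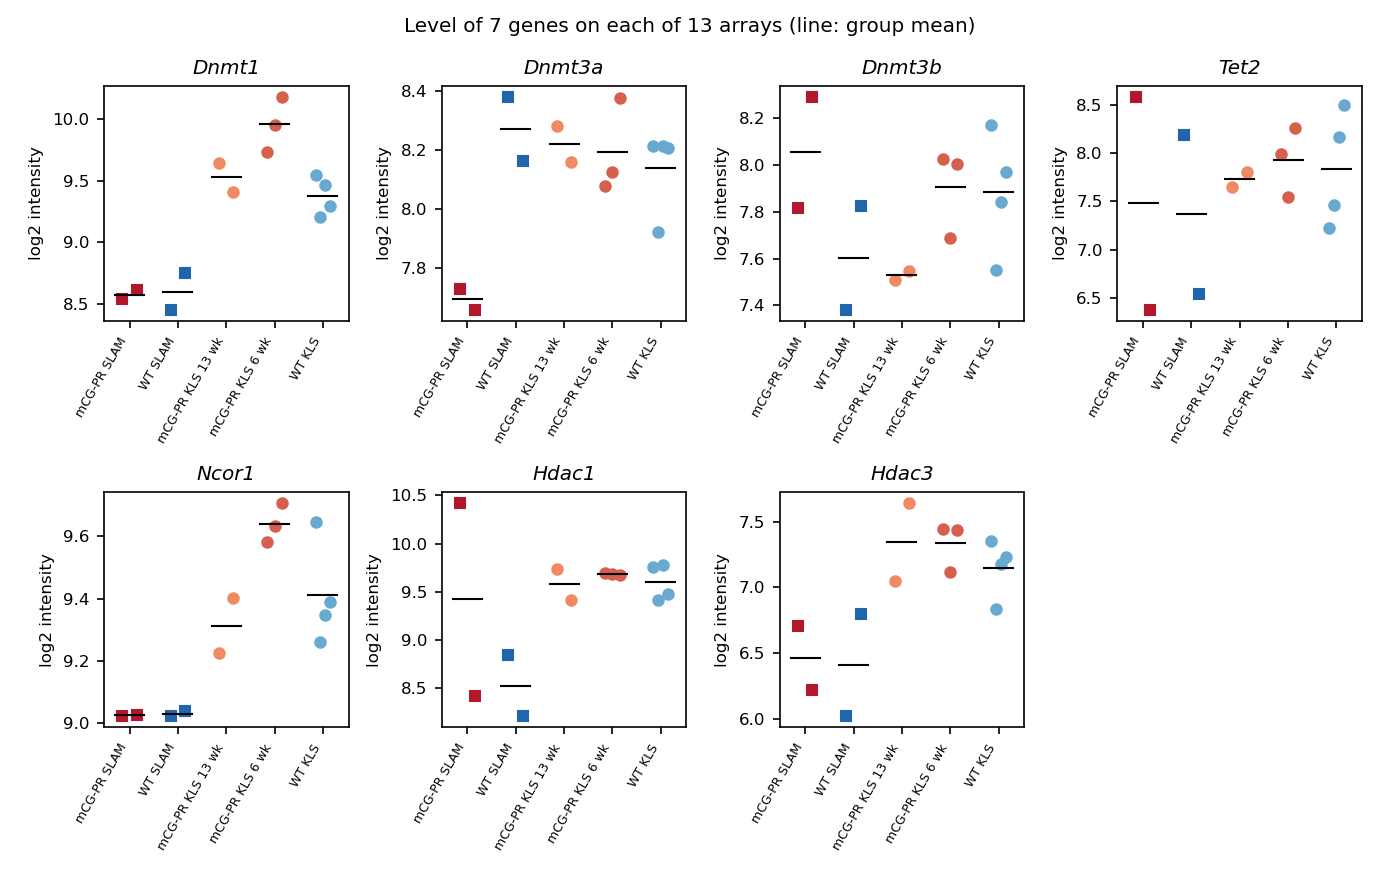
Level (log2 intensity, y axis) of the 7 measured genes on each of 13 arrays, by group, with a line at the group mean and a separate y range for each gene. Dnmt1 lies between 8.45 and 8.75 on the 4 SLAM arrays and between 9.20 and 10.18 on the 9 KLS arrays, and Ncor1 lies at 9.02 to 9.04 on the SLAM arrays and at 9.22 to 9.71 on the KLS arrays.

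In mCG-PR mice, Dnmt1 was lower in SLAM cells than in 6-week KLS cells, with a log2 change of -1.38 ± 0.265 (SE; 95% interval -1.95 to -0.82), or a fold of 0.383 (limma adjusted p = 0.00432). Of the 7 measured genes, 1 passed the threshold in this comparison, against 13.1% of all genes tested, a share close to that background. The median change of all tested genes was -0.19 and the Dnmt1 change minus that median was -1.20. Dnmt1 was lower without overlap, as were 35.1% of all genes. The call was lost after quantile normalization, which moved the all-gene median to 0.06 and the Dnmt1 change to -0.83 (adjusted p = 0.0773), and it was also lost without mCG-PR SLAM replicate 1, where the change was -1.35 (adjusted p = 0.0594). Over the alternatives run, the adjusted p lay between 0.000419 and 0.0773. With low Y-linked expression as a covariate, chosen after seeing the data, the change was -1.61. Only the 6-week mCG-PR KLS group is mixed in that covariate, and its replicate 3 alone is low like the SLAM cells. The value therefore sets the SLAM cells against that 1 array, which had the highest Dnmt1 level. The single probe sets of Dnmt1 pointed mostly the same way: 43 of 47 were lower in mCG-PR SLAM cells, with a median difference of -1.28, against 52.9% of all probe sets.

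In wild-type mice the same population difference in Dnmt1 was -0.78 ± 0.26 (fold 0.583) and did not pass (adjusted p = 0.119), although neither SLAM array reached the 4 KLS arrays. The wild-type SLAM mice were 6 weeks old and the wild-type KLS mice 12 or 13 weeks. A total of 3.12% of genes passed in this comparison and 22.3% of genes were lower without overlap. Of its probe sets, 37 of 47 were lower in wild-type SLAM cells, with a median of -0.67, against 48.6% of all probe sets. Averaged over the wild-type and mCG-PR pairs, a contrast added after seeing the data, Dnmt1 was lower in SLAM cells by a log2 change of -1.08 ± 0.186 (adjusted p = 0.00128), with 19.1% of all genes passing. The difference between the population effects of the genotypes, which is also the genotype effect in SLAM cells minus that in 6-week KLS cells, was -0.60 ± 0.371 for Dnmt1 (adjusted p = 0.727). In bulk RNA of sorted cells, fewer cells of a type and less RNA per cell cannot be told apart.

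Dnmt1 follows DNA replication in its known biology, and the list of mitotic and S phase genes was also lower in SLAM than in KLS cells. That list, with 27 of 30 genes tested, averaged 6.55 and 6.60 in mCG-PR SLAM cells, 6.72 and 7.43 in wild-type SLAM cells, 8.23 and 8.38 in 13-week mCG-PR KLS cells, 8.25, 8.66 and 8.54 in 6-week mCG-PR KLS cells, and 7.85, 7.53, 8.29 and 7.89 in wild-type KLS cells. Between mCG-PR SLAM and 6-week mCG-PR KLS cells, 23 of the 27 genes passed as lower, with a median change of -1.83. Over all genes 12.3% passed as lower there, with a median of -0.187. Between wild-type SLAM and wild-type KLS cells 1 of the 27 passed as lower, with a median of -0.74. Over all genes 2.77% passed as lower in that pair, a share close to that of the list, with a median of -0.055. Between genotypes the list and Dnmt1 did not always go together. In mCG-PR against wild-type SLAM cells the list median was -0.53 and the Dnmt1 change -0.025. Against wild-type KLS cells they were 0.50 and 0.15 in 13-week mCG-PR KLS cells, and 0.65 and 0.58 in 6-week ones. The part of this list in the Dnmt1 result was not tested.

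Within the KLS arrays alone, Dnmt1 correlated with the mean of that list at Pearson r = 0.776 (exact permutation p = 0.014, adjusted over the 7 genes 0.0981) and Spearman rho = 0.667 (exact permutation p = 0.0589, adjusted 0.412), over 9 arrays. Without the 2 arrays farthest from the median of the list, both wild-type, r was 0.771 (exact permutation p = 0.0409). After the group means were removed r was 0.487. None of the 7 genes passed after adjustment. The r of the other 6 ran between -0.046 for Dnmt3b and 0.512 for Dnmt3a. Arrays share a group and a preparation, so these values describe the 9 arrays.

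**Figure D2:**
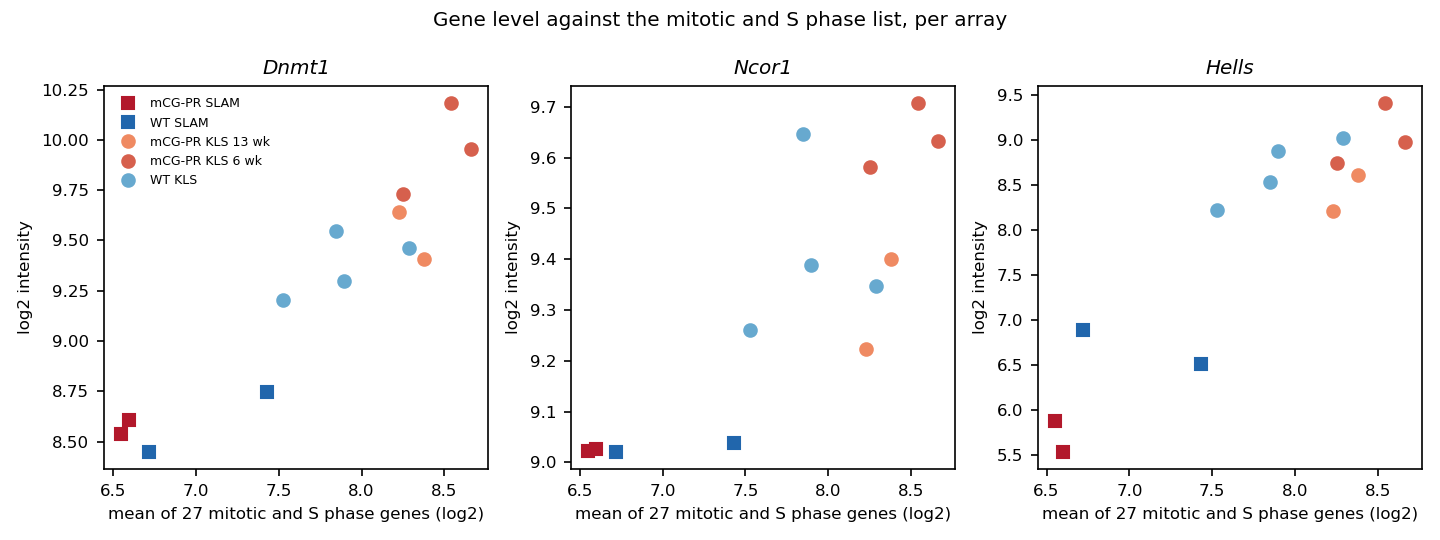
Level of Dnmt1, Ncor1 and Hells (log2 intensity, y axis) against the mean of 27 mitotic and S phase genes (log2 intensity, x axis), with 1 point per array, squares for SLAM and circles for KLS cells. The SLAM arrays lie at 6.55 to 7.43 on the x axis and the KLS arrays at 7.53 to 8.66, and each gene is lower on all 4 SLAM arrays than on any KLS array.

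Of the DNA methylation genes that passed as lower in mCG-PR SLAM cells, Dnmt1, the remodeller Hells and the replication clamp Pcna held a match to a searched motif and are shown, while the Usp7 window held none. The start regions were read for binding motifs of E2F factors, the regulators of S phase genes, and for the retinoid half-site that RARA binds. All sequences are RefSeq's on GRCm38.p6, in the 250 bases before a listed start, 5′ to 3′ on the gene's strand. The E2F-type motifs searched were TTTCCCGC, TTTCGCGC, TTTGCCGC and TTTGGCGC on both strands, which 1.86% of all 32851 promoter windows hold. One of 3 listed Dnmt1 starts and the Hells start held 1 each, at 219 and 62 bases before the start. The Dnmt1 match is counted from a start inside the listed gene, at base 20952623. The window of the outermost Dnmt1 start, at base 20959888, held none. Pcna held none of these motifs, and no other window of the 7 members with an entry held one. The half-site AGGTCA, searched on both strands and held by 14.0% of windows, occurred in the Pcna window 43 bases before the start, in 1 Dnmt3a window and in the Tet1 window. The sites of Dnmt1 (chr9:20952824-20952853, minus strand) and Hells (chr19:38930917-38930946, plus strand) and the whole Pcna window (chr2:132253181-132253430, minus strand) are shown with the match in capitals.
Dnmt1: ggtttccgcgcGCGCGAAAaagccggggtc
Hells: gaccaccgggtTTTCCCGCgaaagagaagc
Pcna: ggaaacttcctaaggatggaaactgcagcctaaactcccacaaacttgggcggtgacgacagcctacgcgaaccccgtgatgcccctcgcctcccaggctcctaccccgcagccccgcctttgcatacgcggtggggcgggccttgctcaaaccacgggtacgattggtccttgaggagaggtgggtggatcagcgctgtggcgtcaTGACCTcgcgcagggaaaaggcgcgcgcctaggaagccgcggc
The Pcna window holds 22 CpG dinucleotides and the Hells window 28, against a median of 6 over all windows. The 12 windows of the 7 members with an entry hold 2 to 51. These matches are a description of the letters and not of binding.

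Between genotypes in KLS cells no member passed. Dnmt1 had the largest member change at 6 weeks and with both ages together, while at 13 weeks Dnmt3b did. In 6-week mCG-PR KLS cells the log2 change of Dnmt1 against wild-type KLS cells was 0.58 ± 0.156 (95% interval 0.24 to 0.91), a fold of 1.49, with an adjusted p of 0.176. All 3 mCG-PR arrays lay above all 4 wild-type arrays, as 9.46% of all genes did. The all-gene median change in this comparison was 0.11, and 71.7% of genes were positive. All 7 members had a positive change, from 0.02 for Dnmt3b to Dnmt1, but 3 of 7 did after quantile normalization and 4 of 7 with array medians subtracted. Dnmt1 was among the positive ones under each scaling, at 0.43 and 0.50. Over all genes 0.0378% passed. By probe set, 44 of 47 Dnmt1 probe sets were higher in 6-week mCG-PR cells, with a median difference of 0.44, and 20 of them did not overlap, against 62.5% higher and 6.21% not overlapping among all probe sets.

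At 13 weeks the Dnmt1 change against the same wild-type KLS arrays was 0.15 ± 0.177, and the 2 mCG-PR arrays overlapped with the 4 wild-type arrays; 0.00946% of all genes passed. Dnmt1 at 13 weeks was below Dnmt1 at 6 weeks in mCG-PR KLS cells by a log2 change of -0.43 ± 0.187, with no overlap (adjusted p = 0.375), where 20.1% of genes were lower without overlap and 0.00946% passed. These 3 comparisons share arrays, so their values are not independent. With both ages set against wild type, the Dnmt1 change was 0.36 ± 0.139 (adjusted p = 0.29), and 0.132% of all genes passed.

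**Figure D3:**
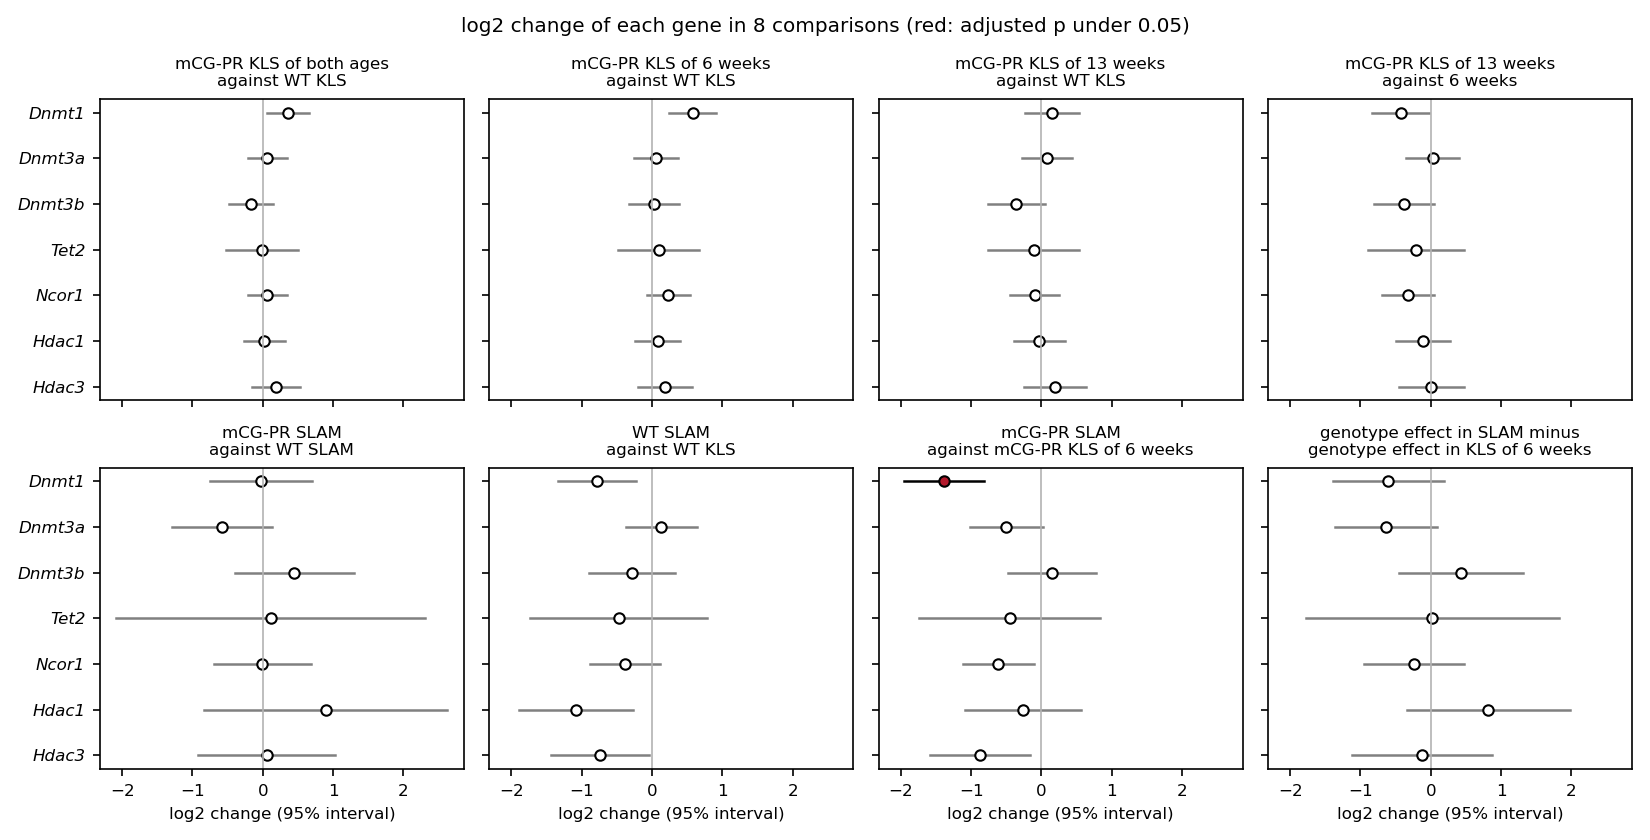
log2 change (x axis, with 95% interval) of the 7 measured genes (y axis) in each of 8 comparisons; a filled red point marks an adjusted p under 0.05. The only filled point is Dnmt1 in mCG-PR SLAM cells against 6-week mCG-PR KLS cells, at -1.38.

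Dnmt3a was lowest in mCG-PR SLAM cells. Its level there was 7.73 and 7.66, against 8.38 and 8.16 in wild-type SLAM cells. The KLS arrays had 8.28 and 8.16 at 13 weeks, 8.08, 8.12 and 8.38 at 6 weeks, and 8.21, 7.92, 8.21 and 8.21 in wild-type KLS cells. Both mCG-PR SLAM arrays lay below all other 11 arrays, and the share of all genes with this order was not counted. The log2 change of mCG-PR against wild-type SLAM cells was -0.58 ± 0.282, a fold of 0.669, and did not pass (adjusted p = 0.817). With the mean of probe sets it was -0.25. Of the 33 probe sets, 21 were lower in mCG-PR than in wild-type SLAM cells, against 48.8% of all probe sets. No gene passed in this comparison by limma (0 of 10575, with 661, or 6.25%, at an unadjusted p under 0.05), and 18.8% of genes were lower without overlap. Against 6-week mCG-PR KLS cells the Dnmt3a change in mCG-PR SLAM cells was -0.50 ± 0.244 (adjusted p = 0.207) and -0.11 after quantile normalization, while wild-type SLAM against wild-type KLS cells gave 0.13. The genotype effect in SLAM cells minus that in 6-week KLS cells was -0.63 ± 0.342 (adjusted p = 0.656; 0.0189% of genes passed). Of the 33 Dnmt3a probe sets, 24 were lower in mCG-PR SLAM than in 6-week mCG-PR KLS cells, against 52.9% of all probe sets.

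Dnmt3b, the other de novo enzyme, showed no such order. It was at 7.82 and 8.29 in mCG-PR SLAM cells, 7.38 and 7.83 in wild-type SLAM cells, 7.51 and 7.55 in 13-week mCG-PR KLS cells, 8.025, 7.689 and 8.004 in 6-week mCG-PR KLS cells, and 8.17, 7.55, 7.84 and 7.97 in wild-type KLS cells. The 13-week mCG-PR arrays lay just below the lowest wild-type KLS array. The change of 13-week mCG-PR against wild-type KLS cells was -0.36 ± 0.188 (adjusted p = 0.42), with 10.2% of genes lower without overlap, and against 6-week mCG-PR cells it was -0.38 ± 0.198. In mCG-PR against wild-type SLAM cells the change was 0.45 ± 0.337 in the direction opposite to that of Dnmt3a, and neither passed.

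Tet2, which oxidises methylcytosine, was measured by 5 probe sets whose mean levels spanned 5.57 to 9.59, the thinnest coverage among the members. Its level was 8.58 and 6.38 in mCG-PR SLAM cells, 8.19 and 6.54 in wild-type SLAM cells, 7.65 and 7.81 in 13-week mCG-PR KLS cells, 7.99, 7.55 and 8.26 in 6-week mCG-PR KLS cells, and 7.23, 7.47, 8.17 and 8.50 in wild-type KLS cells. Within each SLAM group the 2 arrays differed by more than any pair of KLS arrays. The SD was 1.56 in mCG-PR SLAM and 1.17 in wild-type SLAM cells, against 0.109 to 0.594 in the KLS groups. No Tet2 change passed in any comparison, and the log2 change was 0.12 in mCG-PR against wild-type SLAM cells (adjusted p = 0.994).

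**Figure D4:**
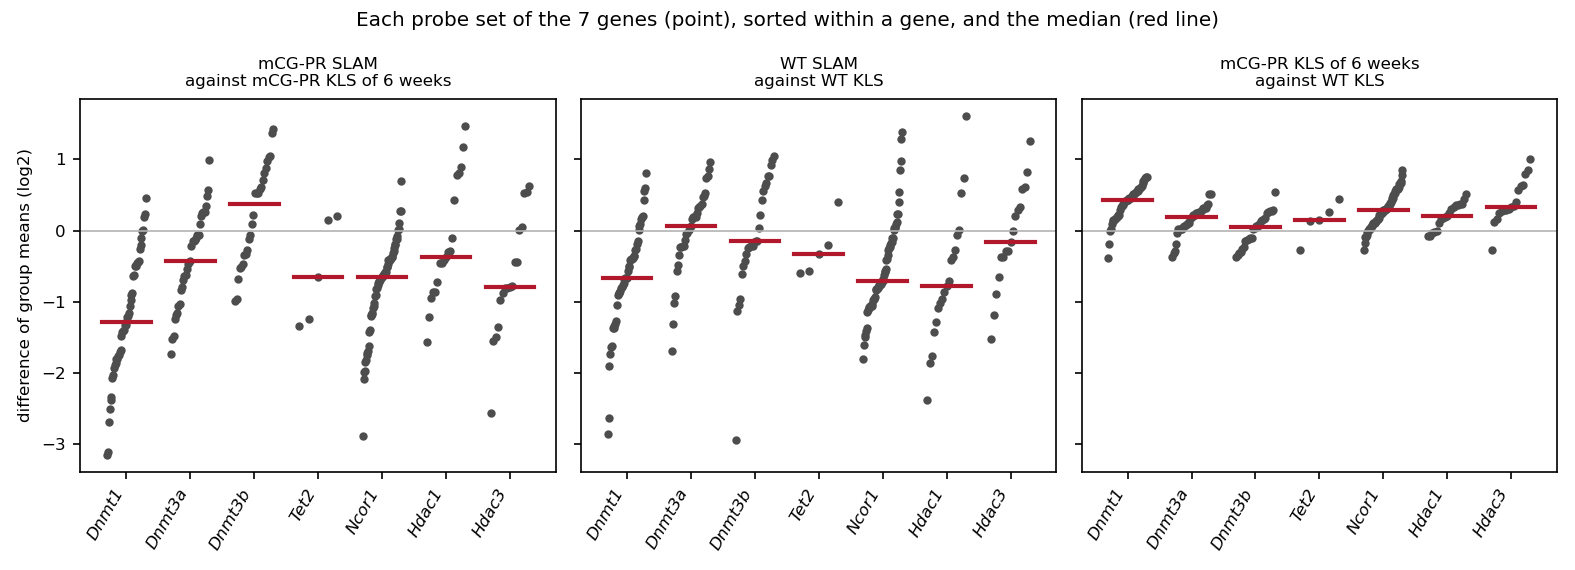
Difference of group means (log2, y axis) of every probe set of the 7 genes, sorted within a gene, with the median as a red line, in 3 comparisons. For Dnmt1 the medians are -1.28, -0.67 and 0.44 from left to right, and 43, 37 and 44 of 47 probe sets share the sign of the median.

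The gene value of Ncor1 was nearly the same on the 4 SLAM arrays, at 9.02 and 9.03 in mCG-PR and 9.02 and 9.04 in wild-type cells. Its 61 single probe sets did not share this, with genotype differences in SLAM cells of -3.20 to 2.18. Without overlap 19 were higher and 16 lower, against 18.0% and 16.6% of all probe sets. After quantile normalization the Ncor1 genotype change in SLAM cells was 0.19. In KLS cells Ncor1 was at 9.22 and 9.40 in 13-week mCG-PR, 9.58, 9.63 and 9.71 in 6-week mCG-PR, and 9.65, 9.26, 9.35 and 9.39 in wild-type mice. All SLAM arrays lay below all KLS arrays, an order whose share among all genes was not counted. In the mCG-PR pair 35.1% of all genes were lower without overlap, and in the wild-type pair 22.3%. The Ncor1 change was -0.62 ± 0.238 (adjusted p = 0.103) for mCG-PR SLAM against 6-week mCG-PR KLS cells. For wild-type SLAM against wild-type KLS cells it was -0.38 ± 0.233 (adjusted p = 0.43). Averaged over both pairs, a contrast added after seeing the data, the Ncor1 change was -0.50 ± 0.166 and passed (adjusted p = 0.0478), as did 19.1% of all genes. After quantile normalization the Ncor1 difference was -0.02 in mCG-PR and -0.15 in wild-type mice (adjusted p = 0.973 and 0.833), whereas with array medians subtracted it was -0.50 and -0.35. In probe sets, without quantile normalization, 55 of 61 were lower in mCG-PR SLAM cells and 47 of 61 in wild-type SLAM cells than in their KLS counterparts. Of all probe sets, 52.9% and 48.6% were lower. In KLS cells, 52 of 61 were lower at 13 than at 6 weeks in mCG-PR mice, against 52.6% of all probe sets. The gene's change there was -0.33 ± 0.171 without overlap, where 20.1% of all genes were lower without overlap, and it did not pass.

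Hdac3, the deacetylase that NCoR activates, had lower values in SLAM cells too. It was at 6.70 and 6.22 in mCG-PR SLAM cells, 6.02 and 6.80 in wild-type SLAM cells, 7.05 and 7.64 in 13-week mCG-PR KLS cells, 7.45, 7.12 and 7.44 in 6-week mCG-PR KLS cells, and 7.36, 6.83, 7.18 and 7.24 in wild-type KLS cells. All SLAM arrays lay below all KLS arrays, the nearest pair being 6.80 and 6.83. The share of all genes with this order was not counted. Lower without overlap were 35.1% of all genes in the mCG-PR pair and 22.3% in the wild-type pair. The Hdac3 change was -0.87 ± 0.333 in mCG-PR (adjusted p = 0.1) and -0.74 ± 0.326 in wild-type mice (adjusted p = 0.245). The wild-type value moved with single arrays and with the probe set summary, at -0.35 without wild-type SLAM replicate 1, -1.13 without replicate 2 and -0.10 with the mean of probe sets. Averaged over both pairs, in the contrast added after seeing the data, the Hdac3 change was -0.81 ± 0.233 and passed (adjusted p = 0.0246), as did 19.1% of all genes. After quantile normalization the change was -0.71 in both genotypes, without passing. The median of the 17 single probe sets was -0.80 in mCG-PR mice and -0.16 in wild-type mice.

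Hdac1, the catalytic subunit of several repressor complexes, had 1 array far from the rest. Its level was 10.42 and 8.42 in mCG-PR SLAM cells, 8.85 and 8.21 in wild-type SLAM cells, 9.73 and 9.42 in 13-week mCG-PR KLS cells, 9.70, 9.68 and 9.67 in 6-week mCG-PR KLS cells, and 9.76, 9.42, 9.78 and 9.47 in wild-type KLS cells. mCG-PR SLAM replicate 1 was the highest of all 13 arrays, while the other 3 SLAM arrays were the lowest. Between the 2 mCG-PR SLAM arrays, 18 of 19 Hdac1 probe sets were higher in replicate 1, with a median difference of 1.22, against 48.5% of all probe sets. Wild-type SLAM against wild-type KLS cells gave -1.08 ± 0.381, without overlap (adjusted p = 0.139), where 22.3% of all genes were lower without overlap. For mCG-PR against wild-type SLAM cells the change was 0.89 ± 0.691 (adjusted p = 0.906). Without mCG-PR SLAM replicate 1 that value was -0.11, and without replicate 2 it was 1.89. In mCG-PR SLAM against 6-week mCG-PR KLS cells the change was -0.26, and 0.33 after quantile normalization. The median change of the 7 members was -0.50 in mCG-PR SLAM against 6-week mCG-PR KLS cells and -0.48 in wild-type SLAM against wild-type KLS cells, beside -0.19 and -0.06 over all genes. In the other comparisons the member median lay between -0.21 for 13-week against 6-week mCG-PR KLS cells and 0.09 for 6-week mCG-PR against wild-type KLS cells.

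The genes closest to each member over the 9 KLS arrays were found by Pearson r, as a description. Dnmt1 was followed most closely by Tmem131 (r = 0.978), Spout1 (0.969) and Tmem234 (0.968), and Ncor1 by Aebp2 (0.972), Rnf213 (0.96) and Dag1 (0.956). Dnmt3a was closest to Max (0.958), Ncaph2 (0.931) and Mtg2 (0.925), and Dnmt3b to Rint1 (0.951), Gpr171 (0.944) and Eya1 (0.928). Tet2 was closest to Tusc2 (0.93), Anapc10 (0.924) and Tmem218 (0.907). Hdac1 was closest to Aimp2 (0.936), Gmcl1 (0.928) and Wdr46 (0.927), and Hdac3 to Wnt11 (0.943), 2610528J11Rik (0.934) and Ralb (0.906). Each value is among the 3 highest of all tested genes, so it is high by choice. Among the members themselves, r was highest between Dnmt1 and Ncor1 at 0.73 and between Dnmt3b and Ncor1 at 0.691.

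Hells, a chromatin remodeller that DNA methylation depends on, was lower in SLAM than in KLS cells in both genotypes, by more than any member. It was at 5.88 and 5.54 in mCG-PR SLAM cells, 6.88 and 6.51 in wild-type SLAM cells, 8.21 and 8.61 in 13-week mCG-PR KLS cells, 8.74, 8.98 and 9.40 in 6-week mCG-PR KLS cells, and 8.53, 8.22, 9.02 and 8.87 in wild-type KLS cells. All 4 SLAM arrays lay at least 1 log2 unit below the lowest KLS array, and the share of all genes with such a gap was not counted. The change was -3.33 ± 0.37 in mCG-PR (adjusted p = 0.000223) and -1.96 ± 0.361 in wild-type mice (adjusted p = 0.0106). The wild-type call was lost without wild-type SLAM replicate 1 (adjusted p = 0.0562) or replicate 2 (adjusted p = 0.119). The mCG-PR call was kept in every alternative run, with changes of -3.69 to -2.65. The -2.65 is the mean of the WT and mCG-PR pairs, and so not a change in mCG-PR mice alone. The -3.69 is the value with the Y-linked covariate. The genotype effect in SLAM cells minus that in 6-week KLS cells was -1.37 ± 0.517 (adjusted p = 0.426).

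Of the 32 DNA methylation partners listed, 25 were tested, and 3 of them passed in mCG-PR SLAM against 6-week mCG-PR KLS cells, all lower, with a list median of -0.53 beside -0.19 over all genes. With 13.1% of all genes passing in this comparison, 3 of 25 is a share close to the background. Beside Hells these were Pcna, the clamp that tethers Dnmt1 to replication forks, at -1.13 ± 0.263 (adjusted p = 0.012), and Usp7, a deubiquitinase of Dnmt1 and Uhrf1, at -0.93 ± 0.263 (adjusted p = 0.0305). Pcna was at 11.23 and 10.54 in mCG-PR SLAM cells against 11.90, 12.05 and 12.12 in 6-week mCG-PR KLS cells. The Pcna call was lost after quantile normalization (adjusted p = 0.166) and without mCG-PR SLAM replicate 2 (adjusted p = 0.224), and the Usp7 call after quantile normalization (adjusted p = 0.459), with array medians subtracted (0.0604), with the Y-linked covariate (0.0525) and without mCG-PR SLAM replicate 1 (0.093) or 2 (0.307) or 6-week mCG-PR KLS replicate 2 (0.0586) or 3 (0.0601). In wild-type SLAM against KLS cells Hells was the single partner of 25 that passed, with a list median of -0.15 beside -0.06 over all genes. As 3.12% of all genes passed there, this share is also close to the background.

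Of the 41 genes of the corepressor complexes, 38 were tested and 3 passed in mCG-PR SLAM against 6-week mCG-PR KLS cells, all lower, with 4 of the 38 positive and a list median of -0.38, beside 36.7% positive and a median of -0.19 over all genes. The share that passed was below the 13.1% of all genes. These were Suv39h2, a histone H3 lysine methyltransferase of heterochromatin, at -1.62 ± 0.38 (adjusted p = 0.0124), Ing2, a subunit of the Sin3 complex, at -1.04 ± 0.324 (adjusted p = 0.0467), and Setdb1, the methyltransferase that Trim28 recruits, at -0.96 ± 0.26 (adjusted p = 0.0257). Without mCG-PR SLAM replicate 1 the adjusted p was 0.13 for Suv39h2, 0.127 for Ing2 and 0.155 for Setdb1, and without replicate 2 it was 0.0752, 0.364 and 0.167 in the same order. The Ing2 and Setdb1 calls were also lost after quantile normalization (adjusted p = 0.149 and 0.289) and with array medians subtracted (0.0769 and 0.0509), and that of Ing2 with no filter (0.0501) and with the Y-linked covariate (0.108). Without 6-week mCG-PR KLS replicate 2 the adjusted p of Ing2 was 0.0952, and without replicate 3 it was 0.0741 for Ing2 and 0.05004 for Setdb1. With the replicate block it was 0.0642 for Ing2, 0.0506 for Setdb1 and 0.0524 for Usp7. Setdb1 was at 7.85 and 7.81 in mCG-PR SLAM cells against 8.60, 8.69 and 9.07 in 6-week mCG-PR KLS cells. Among the other histone deacetylases, 15 of 16 were tested and 1 passed, a share also below the 13.1% of all genes. It was Hdac2, the close relative of Hdac1, at -1.31 ± 0.275 (adjusted p = 0.00662), at 9.03 and 8.61 in mCG-PR SLAM cells against 10.09, 10.21 and 10.10 in 6-week mCG-PR KLS cells. It was lost after quantile normalization (adjusted p = 0.17) and without mCG-PR SLAM replicate 2 (adjusted p = 0.113).

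**Figure D5:**
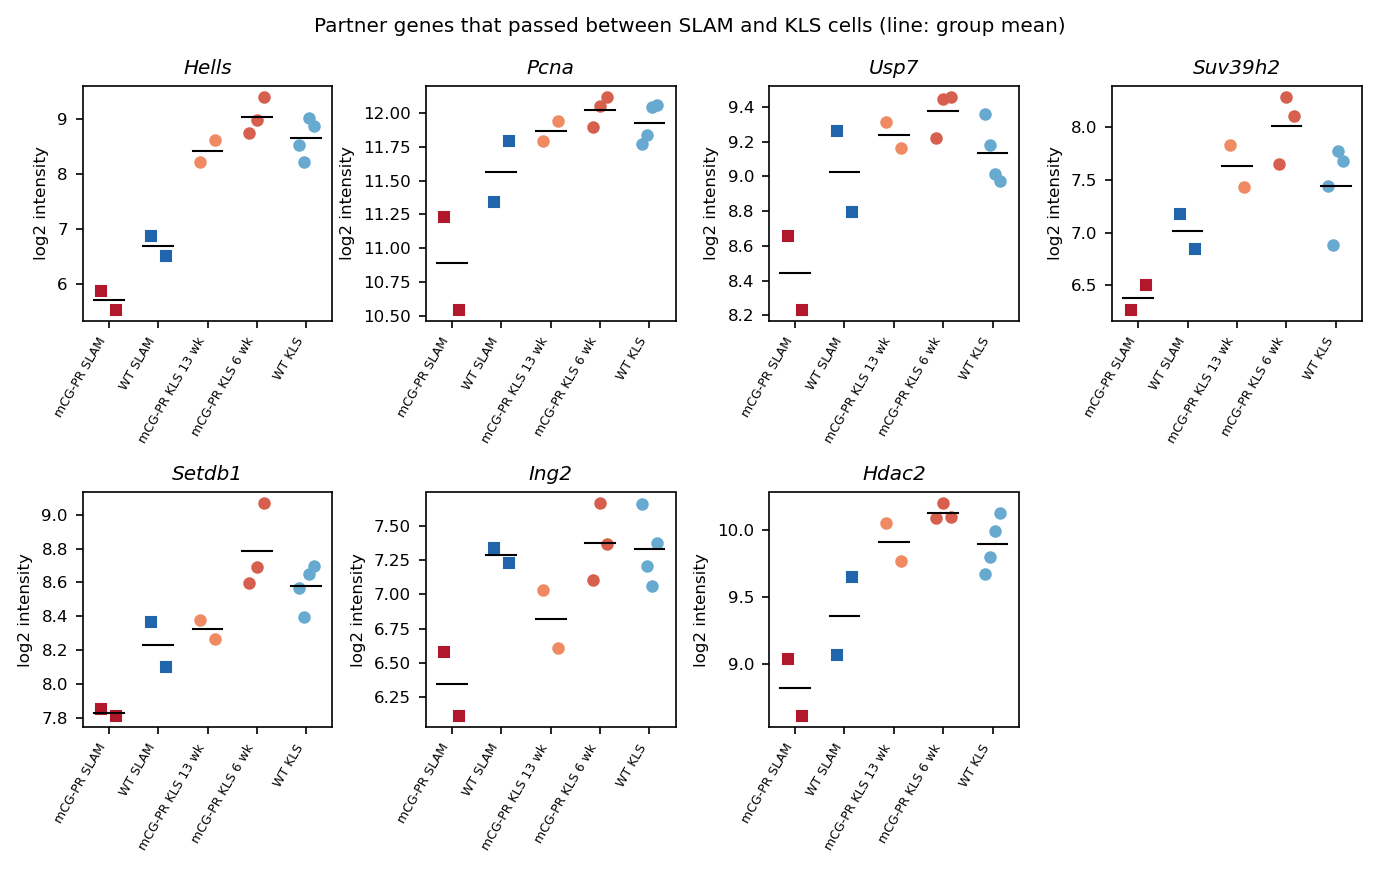
Level (log2 intensity, y axis) of the 7 partner genes that passed between SLAM and KLS cells, on each of 13 arrays by group, with a line at the group mean. Hells lies at 5.54 to 6.88 on the SLAM arrays against 8.21 to 9.40 on the KLS arrays.

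In the other comparisons none of the 78 tested partner genes passed. In 6-week mCG-PR against wild-type KLS cells the smallest p-values belonged to Zbtb33, a methyl-CpG reader, at 0.51 ± 0.185, Bcl6, a repressor that recruits NCoR, at 0.46 ± 0.152, and Suv39h1 at 0.46 ± 0.162, none with an adjusted p under 0.05. Bcl6 had a change of 0.42 ± 0.172 at 13 weeks as well, against the same wild-type arrays. At 13 weeks Mat2a, the enzyme that makes the methyl donor S-adenosylmethionine, had a change of -0.65 ± 0.168 against wild-type KLS cells (adjusted p = 0.165) and of -0.62 ± 0.177 against 6-week mCG-PR cells. Tbl1xr1, an NCoR subunit, had a change of -0.73 ± 0.193 between 13-week and 6-week mCG-PR KLS cells (adjusted p = 0.25). In mCG-PR against wild-type SLAM cells the largest of the 3 named per list were Zbtb38, a methyl-CpG binding repressor, at 1.35 ± 0.422, Suv39h1 at 1.08 ± 0.407 and Gps2, an NCoR subunit, at 1.01 ± 0.31, with adjusted p-values of 0.774, 0.788 and 0.774.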

How the data were processed

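RNA was hybridised to Affymetrix Mouse Exon 1.0 ST arrays. The deposited values are intensity on a linear scale, 1 per probe set and array, made by the authors with RMA on mm9, per the submitters' processing notes; the sources used here give no RMA settings. They ran from 2.34 to 21748.2. Log2 was taken, and a gene's value is the median over its single-gene probe sets (3 or more). Genes with a mean above the 30th percentile (log2 5.997) entered limma (3.58.1, under R 4.3.3), with Benjamini-Hochberg adjustment over all 10575 genes and a threshold of 0.05. KLS and SLAM arrays were fitted separately. Comparisons between them used all 13 arrays with 1 weight per population. The number of arrays limits the precision.

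The members, lists and tests were chosen with earlier results of these data known. Beside the 9 members, the text names the 3 most alike genes of each, and the partner genes that passed, or otherwise genes from the 3 of smallest p per list. Arrays count as samples of separate mice, per the labels. Same-numbered arrays did not deviate together (correlations of -0.066 to 0.078), so numbers were not used as pairs. Alternatives covered filters, probe set summary, scaling, weights and leaving out each array. A Y-linked covariate and the mean of the WT and mCG-PR pairs were chosen after seeing the data. In mCG-PR SLAM against KLS cells, that covariate rests on 1 array, replicate 3 of the 6-week KLS cells.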

Additional observations from a re-analysis of the deposited data

Results flagged for a closer look

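Dnmt3a in wild-type KLS cells had 1 array away from the rest: replicate 2 was at 7.92, while the other 3 arrays lay at 8.21, and this gap was 0.98 of the group's range. It was found among 7 gene and group combinations tested, each of which chance would put past the critical value about 1 time in 20.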

How the results depend on the processing

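No called member change turned its direction. Between mCG-PR SLAM and 6-week mCG-PR KLS cells, 1 member passed; 2 passed with the mean of probe sets, 0 after quantile normalization, 3 with all 13 arrays unweighted, 3 for the mean of the WT and mCG-PR pairs, and 0 to 1 when leaving out 1 array. Between wild-type SLAM and KLS cells, 0 members passed, while 1 passed with all 13 arrays unweighted and 3 for the mean of the pairs. In that mean of the pairs, chosen after seeing the data, 19.1% of all genes passed. The correlation with the mitotic and S phase list passed for 0 members; 2 passed with the mean of probe sets (Dnmt1, r = 0.782, and Hdac3, r = 0.84) and 0 to 1 when leaving out 1 array. With the replicate number as a block, the Dnmt1 change between mCG-PR SLAM and KLS cells was -1.31 (adjusted p = 0.0154), and the block changed no member call; among partner genes it ended those of Usp7 (0.0524), Ing2 (0.0642) and Setdb1 (0.0506). Over all genes, calls in mCG-PR SLAM against KLS cells numbered 1387, and 397 to 1515 without 1 array and 513 to 2394 in the other alternatives; 93.8% of calls were lower, and 74.5% after quantile normalization. In wild-type SLAM against KLS cells the 330 calls ranged from 94 to 334 and from 119 to 2021, and in mCG-PR against wild-type SLAM cells the 0 calls ranged from 0 to 0 and from 0 to 270. The 2021 at the upper end of the wild-type range are the calls for the mean of the WT and mCG-PR pairs. That is a different contrast, which includes the mCG-PR arrays. The causes of these changes were not tested.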
